A study of Rattus norvegicus with 9 samples.

Results

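Thrombospondins and other matricellular proteins, a set of secreted proteins of the extracellular matrix (ECM), were followed in rat brain after ischemia/reperfusion. The 10 genes (Thbs1, Thbs2, Thbs4, Sparc, Sparcl1, Spock1, Spock2, Vtn, Fn1, and Tnc) were listed by name. All non-control probes carrying one of these names were taken, which gave 12 of the 30367 probes and 10 of the 19293 gene symbols of the array. Fn1 and Spock2 had 2 probes each, and the brighter one stands for the gene. A test was possible for 9 genes (11 probes), those with a signal well above background throughout 1 group or more.

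The arrays were 9 Agilent SurePrint G3 Rat arrays hybridized in a single color, 1 per sample, with total RNA of the infarcted hemisphere of male Sprague Dawley rats at day 14. The Sham group (n = 3) had been sham-operated, the I/R group (n = 3) had the middle cerebral artery occluded for 2 h and then reperfused, and the DHI group (n = 3) had received Danhong injection, a preparation from the herbs Salvia miltiorrhiza and Carthamus tinctorius, through the tail vein for 14 days in addition to the same occlusion and reperfusion. I/R versus Sham asks what differed after injury, DHI versus I/R what differed with treatment, and DHI versus Sham what still differed from uninjured brain under treatment. The RNA came from bulk tissue, so that fewer cells of a type and less RNA per cell cannot be told apart. Slide 1 held every Sham and I/R array and slide 2, with a scan of its own, every DHI array. In both DHI comparisons slide and treatment therefore cannot be told apart.

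Matricellular proteins are placed in the matrix but serve mainly to tune how cells respond to it, through integrins, growth factors, and proteases, rather than as scaffold. In the brain, thrombospondins secreted by astrocytes are known to promote the formation of synapses, in part through the calcium channel subunit encoded by Cacna2d1, while Sparcl1 (hevin) promotes and Sparc opposes synapse formation. After injury, fibronectin, vitronectin, and tenascin-C are classical parts of the provisional matrix and of the scar.

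The probes of the 2 genes with several probes are shown because the calls made for these genes depend on which one is read. They are 60 bases long, and the first 30 bases are given as the files hold them. Positions refer to the rn4 build, as in the files, and exons were not annotated. For Thbs4 and Vtn the interval in the files is longer than the probe.
Fn1, brighter probe (chr9:70702316-70702375, minus strand): tatctttctcttacctgttatttatcaatt
Fn1, dimmer probe (chr9:70745666-70745725, minus strand): gaccaggttgatgacacttccattgttgtt
Spock2, brighter probe (chr20:27425808-27425867, plus strand): tatctgcctgttactcagcctaaggaaaca
Spock2, dimmer probe (chr20:27421784-27421842, plus strand): attgttatcgatgttcaaatgcacactttc

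The bases upstream of the start are shown for 4 genes, the 3 that held the SMAD-binding letters (Thbs4, Sparc, and Tnc, which rose after I/R) and Spock1, which fell, a choice made after the matches were seen. RefSeq (GRCr8) gave such a sequence for 8 of the 10 genes, all except Thbs2 and Fn1. The 250 bases before the start are written 5′ to 3′ on the strand of the gene, and the last base is position -1. Capitals mark matches, on either strand, to the TATA box (TATAAA), an AP-1 element (TGANTCA), the GC box (GGGCGG), the CCAAT box (CCAAT), and a SMAD-binding element (CAGACA).
Thbs4 (chr2:25760346-25760595, minus strand): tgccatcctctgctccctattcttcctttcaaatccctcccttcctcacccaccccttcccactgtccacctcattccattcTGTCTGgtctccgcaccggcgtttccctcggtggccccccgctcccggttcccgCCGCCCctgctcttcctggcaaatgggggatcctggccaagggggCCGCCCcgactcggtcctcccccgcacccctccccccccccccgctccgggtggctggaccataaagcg
Sparc (chr10:40038817-40039066, minus strand): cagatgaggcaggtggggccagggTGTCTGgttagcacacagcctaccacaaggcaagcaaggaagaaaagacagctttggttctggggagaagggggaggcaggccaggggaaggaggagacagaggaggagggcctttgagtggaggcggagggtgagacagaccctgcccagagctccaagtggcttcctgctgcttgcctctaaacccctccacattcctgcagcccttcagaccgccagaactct
Tnc (chr5:82476132-82476381, minus strand): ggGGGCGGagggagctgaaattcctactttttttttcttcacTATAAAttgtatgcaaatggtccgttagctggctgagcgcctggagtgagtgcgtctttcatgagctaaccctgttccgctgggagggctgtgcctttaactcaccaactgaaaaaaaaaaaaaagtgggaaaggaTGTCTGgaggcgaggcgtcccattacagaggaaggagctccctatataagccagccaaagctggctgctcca
Spock1 (chr17:6746642-6746891, plus strand): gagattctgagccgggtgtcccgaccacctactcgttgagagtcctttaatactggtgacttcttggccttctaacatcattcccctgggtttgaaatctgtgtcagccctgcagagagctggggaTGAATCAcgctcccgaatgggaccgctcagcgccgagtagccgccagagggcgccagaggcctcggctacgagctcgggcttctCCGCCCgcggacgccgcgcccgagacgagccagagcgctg
The SMAD-binding letters were found in 3 of the 8 sequences, at positions -168 to -163 in Thbs4, -226 to -221 in Sparc, and -72 to -67 in Tnc, and in 17.2% of all 33469 promoters of the table. The GC box was found in 5 of the 8 (Thbs1, Thbs4, Spock1, Vtn, and Tnc) and in 30.5% of all promoters. The TATA box letters were found in Tnc, at positions -208 to -203 (12.9% of all promoters). The AP-1 element was found in Spock1 at -124 to -118 (6.34%), and the CCAAT box in Thbs1 at -55 to -51 (34.0%). No matches of different motifs overlapped in these 8 sequences. These matches describe letters and name no factor that acts there.

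Values are given as log2 signal, the log2 of the intensity relative to the 75th percentile of its array, and a log2 fold change is a difference of group means on that scale. Levels are compared only between arrays, within a probe or within the summed level of a marker list. The 75th percentile was 2569.7 to 2745.3 intensity units in Sham, 2628.7 to 3464.4 in I/R, and 1816.3 to 2785.1 in DHI, the share of probes well above background was 75.2% to 78.9% per array, and no spot was saturated. All 6 neuron, 6 astrocyte, and 4 oligodendrocyte markers read were well above background on all 9 arrays, which were labelled brain. A gene was called a differentially expressed gene (DEG) at the study's thresholds, an unadjusted p under 0.05 and a fold change (FC) over 1.5, and the Benjamini-Hochberg adjusted p from limma over all 23747 tested probes is given beside it. DHI 1 stood apart from DHI 2 and DHI 3. Arrays were placed on a scale on which the Sham mean is 0 and the I/R mean is 1. The I/R mean includes I/R 3, which correlated with the Sham arrays at 0.947 to 0.951. For I/R 1 these correlations were 0.876 to 0.886, and for I/R 2 0.893 to 0.907. For the 10241 probes called in I/R versus Sham, the median was 0.90 in DHI 1, -0.011 in DHI 2, and 0.16 in DHI 3. The DHI values of the members and the counts of the lists are therefore also given without DHI 1. That array was picked for its place near I/R, so leaving it out widens the gap between DHI and I/R by construction. Each adjusted p and each DEG call given for DHI versus I/R without DHI 1 is thus a description and not a test.

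In I/R versus Sham, 8 of the 9 tested genes were DEGs, 6 higher in I/R (Thbs2, Thbs4, Sparc, Vtn, Fn1, and Tnc) and 2 lower (Spock1 and Spock2), beside 43.1% of all tested probes called in either direction, 20.8% higher and 22.3% lower. The rises ran from 1.92-fold for Vtn to 9.72-fold for Thbs2, and the falls were 2.20-fold for Spock1 and 3.46-fold for Spock2. The median log2 fold change of the 9 genes was 2.01, against -0.10 over all probes. For all 9 genes the I/R arrays did not overlap the Sham arrays, as was the case for 62.5% of all probes. The 8 DEGs also passed with the adjusted p (adjusted p from 0.0396 to 0.0407), as did 31.5% of all probes. This adjusted count depended on single arrays. It was 0 without Sham 1, without Sham 2, without Sham 3, without I/R 1, without I/R 2, without DHI 3, and with no scaling between arrays, and 8 without I/R 3, without DHI 1, or without DHI 2. Fitted on the Sham and I/R arrays alone, all on 1 slide, all 8 passed as well.

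**Figure D1:**
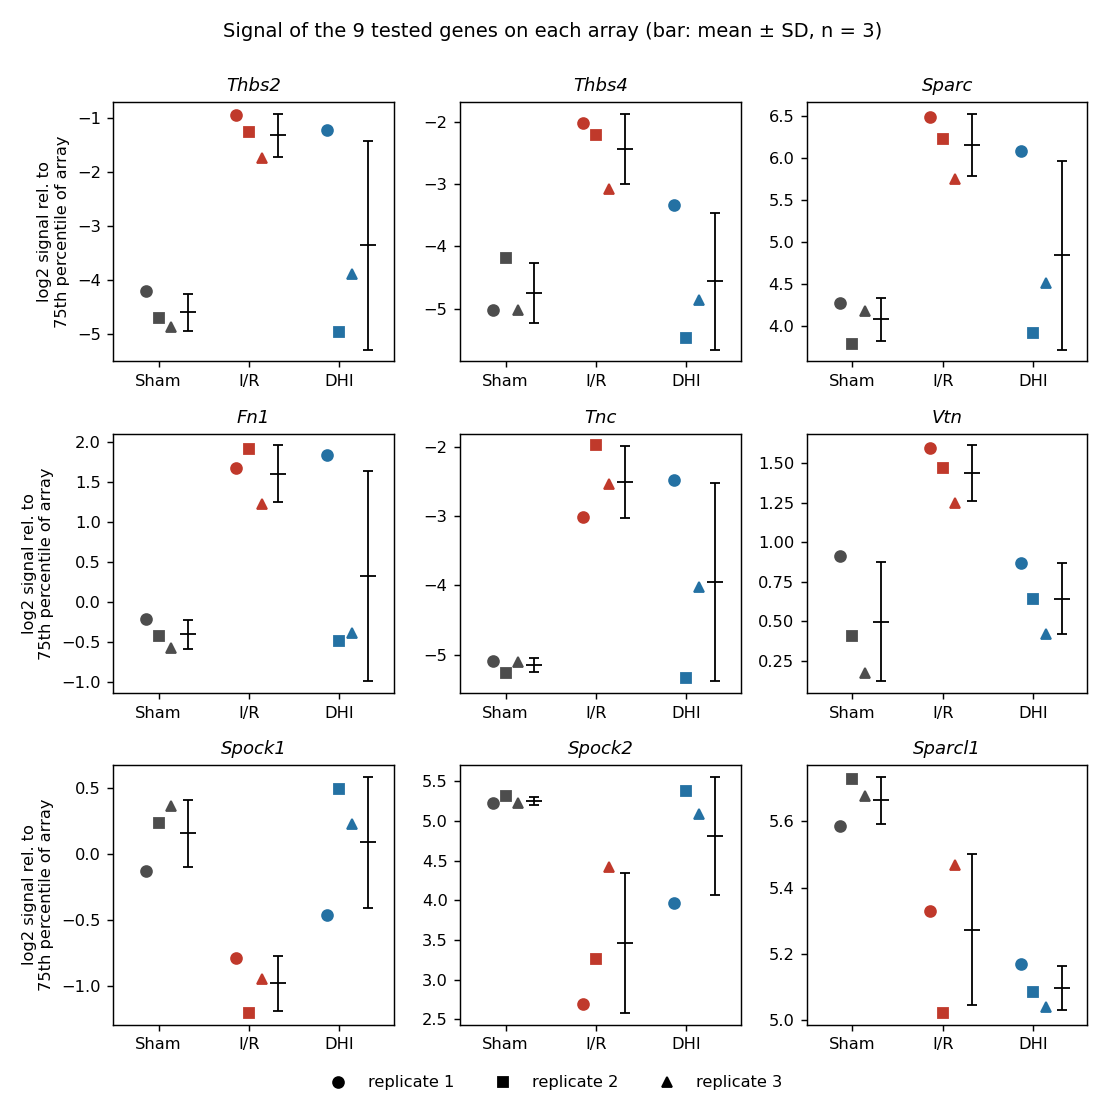
The log2 signal (y axis, relative to the array's 75th percentile, a scale per gene) is shown for each Sham, I/R, and DHI array, with 1 point per array, the shape giving the replicate number and the bar the mean ± SD of 3 arrays. Every I/R point lies outside the range of the Sham points for all 9 genes, and DHI 1 is the DHI array closest to the I/R mean for 8 of them and for Sparcl1 as well, where all 3 DHI points lie below the Sham points.

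Among the thrombospondins, Thbs2 and Thbs4 rose after I/R and Thbs1 could not be measured. Thbs1, best known as an activator of TGF-beta and an inhibitor of angiogenesis, gave a log2 signal between -9.94 and -8.96 and was scored as not well above background on each of the 9, so that no level or fold change is given. Its probe has no coordinates in the files.

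Thbs2 (chr1:53589151-53589210, minus strand), which binds matrix metalloproteinases and limits angiogenesis, had log2 signals of -4.22, -4.71, and -4.87 in Sham 1 to 3, -0.95, -1.27, and -1.74 in I/R 1 to 3, and -1.22, -4.97, and -3.90 in DHI 1 to 3. The 3 I/R arrays lay far above the 3 Sham arrays, and DHI 1 lay among the I/R arrays while DHI 2 lay below every Sham array. The rise in I/R versus Sham was 3.28 (SE 0.83, FC 9.72, adjusted p = 0.0396). Between DHI and I/R the log2 fold change was -2.04 (SE 0.83, FC 4.12, adjusted p = 0.196), past the study's thresholds only, with overlapping groups. That call was lost in 11 of 21 alternatives, among them leaving out any array other than DHI 1. The value was -3.11 without DHI 1 (adjusted p = 0.00245) and -1.24 without DHI 2.

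Thbs4 (chr2:23011026-23011612, minus strand), a thrombospondin that reactive astrocytes secrete, had log2 signals of -5.02, -4.19, and -5.02 in Sham, -2.01, -2.21, and -3.08 in I/R, and -3.34, -5.48, and -4.86 in DHI. All 3 I/R arrays were above all Sham and all DHI arrays, and DHI 1 was the highest of the DHI arrays. The log2 fold change was 2.32 (SE 0.56, FC 4.98, adjusted p = 0.0396) for I/R against Sham and -2.13 (SE 0.56, FC 4.38, adjusted p = 0.196) for DHI against I/R. The latter was a DEG at the study's thresholds, also without each array in turn, and was -2.74 without DHI 1 (adjusted p = 0.00398).

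In the SPARC family the members moved in different directions: Sparc rose, Spock1 and Spock2 fell, and Sparcl1 changed by less than the FC threshold. Sparc (chr10:40811473-40811532, minus strand), a collagen-binding protein of remodelling tissue, had log2 signals of 4.27, 3.78, and 4.18 in Sham, 6.49, 6.22, and 5.75 in I/R, and 6.09, 3.92, and 4.51 in DHI. The I/R arrays were all above the Sham arrays, and DHI 1 lay within the I/R range while DHI 2 lay within the Sham range. Sparc was 4.22-fold higher in I/R than in Sham (log2 fold change 2.08, SE 0.51, adjusted p = 0.0396). Against I/R, the log2 fold change in DHI was -1.32 (SE 0.51, adjusted p = 0.196) with overlapping groups. That DEG call was lost in 7 of 21 alternatives, among them leaving out 1 of I/R 1, I/R 2, DHI 2, and DHI 3, and the value was -1.94 without DHI 1 (adjusted p = 0.0039) and -0.86 without DHI 2.

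Sparcl1 (chr14:6791986-6792045, plus strand), hevin, had log2 signals of 5.59, 5.73, and 5.68 in Sham, 5.33, 5.02, and 5.47 in I/R, and 5.17, 5.09, and 5.04 in DHI. All Sham arrays were above all I/R and all DHI arrays, while the DHI arrays lay within the range of the I/R arrays. The differences were small and it was a DEG in no comparison. The log2 fold change was -0.39 (SE 0.16, adjusted p = 0.0789) in I/R versus Sham, -0.17 (SE 0.16, adjusted p = 0.429) in DHI versus I/R, and -0.57 (SE 0.16, FC 1.48, adjusted p = 0.709) in DHI versus Sham. The last value passed the study's thresholds in 6 of 21 alternatives, among them without Sham 1 (-0.60) and without DHI 1 (-0.60).

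Spock1 and Spock2 encode testicans, proteoglycans of the SPARC family that are abundant in neurons. Spock1 (chr17:13212711-13212770, plus strand) had log2 signals of -0.12, 0.23, and 0.37 in Sham, -0.79, -1.20, and -0.95 in I/R, and -0.46, 0.50, and 0.23 in DHI. All 3 I/R arrays were below every Sham and every DHI array. It fell by 1.14 (SE 0.27, adjusted p = 0.0396) in I/R versus Sham. The log2 fold change of DHI against I/R was 1.07 (SE 0.27, FC 2.10, adjusted p = 0.196), or 1.35 without DHI 1 (adjusted p = 0.00431). The DEG call in DHI versus I/R held without each array in turn.

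The brighter Spock2 probe, read as the mean of 10 spots, had log2 signals of 5.22, 5.31, and 5.22 in Sham, 2.69, 3.27, and 4.42 in I/R, and 3.97, 5.37, and 5.09 in DHI. The Sham arrays lay close together and above all I/R arrays, and DHI 1 was below I/R 3. The fall in I/R versus Sham was 3.46-fold (log2 fold change -1.79, SE 0.48, adjusted p = 0.0403). The log2 fold change of DHI versus I/R was 1.35 (SE 0.48, adjusted p = 0.196). That call was lost in 9 of 21 alternatives, including no scaling between arrays and leaving out 1 of I/R 1, I/R 2, DHI 2, and DHI 3, and the value was 1.77 without DHI 1 (adjusted p = 0.0192) and 1.07 without DHI 2.

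Of the adhesive glycoproteins, Fn1, Tnc, and Vtn all rose after I/R, and Vtn alone of the 3 was a DEG in DHI versus I/R. Vtn (chr10:64611899-64612164, plus strand) encodes vitronectin, an adhesive protein of plasma and matrix that integrins bind. Its log2 signals were 0.91, 0.41, and 0.18 in Sham, 1.59, 1.47, and 1.25 in I/R, and 0.87, 0.64, and 0.42 in DHI. All I/R arrays were above all other arrays, and the Sham and DHI arrays overlapped. The log2 fold change was 0.94 (SE 0.23, FC 1.92, adjusted p = 0.0396) for I/R against Sham and -0.79 (SE 0.23, FC 1.73, adjusted p = 0.196) in DHI versus I/R. Without DHI 1 the latter was -0.91 (adjusted p = 0.0216), and the call held without each array in turn.

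The brighter Fn1 probe, for fibronectin, the main adhesive protein of the provisional matrix, had log2 signals of -0.21, -0.42, and -0.57 in Sham, 1.68, 1.92, and 1.23 in I/R, and 1.85, -0.49, and -0.38 in DHI. DHI 1 lay among the I/R arrays, and DHI 2 and DHI 3 lay among the Sham arrays. Fn1 was 4.03-fold higher in I/R than in Sham (log2 fold change 2.01, SE 0.57, adjusted p = 0.0407). For DHI versus I/R it was -1.28 (SE 0.57, 95% confidence interval -2.61 to 0.039, adjusted p = 0.199), not a DEG. Without DHI 1 it was -2.04 (adjusted p = 0.00207) and passed both thresholds, and without DHI 2 it was -0.88. Fn1 was a DEG here in 5 of 21 alternatives (no scaling, normexp, array weights, the replicate block, and without DHI 1).

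Tnc, whose probe has no coordinates in the files, encodes tenascin-C, a matrix protein that is low in adult tissue and induced by injury. Its log2 signals were -5.09, -5.27, and -5.10 in Sham, -3.02, -1.98, and -2.55 in I/R, and -2.48, -5.35, and -4.03 in DHI. Sham was tight and low, I/R was high on all 3 arrays, and the DHI arrays spanned both groups. The rise in I/R versus Sham was 6.23-fold (log2 fold change 2.64, SE 0.63, adjusted p = 0.0396). That of DHI versus I/R was -1.44 (SE 0.63, 95% confidence interval -2.90 to 0.029, adjusted p = 0.198), not a DEG. It was -2.17 without DHI 1 (adjusted p = 0.00891) and -0.74 without DHI 2. Tnc was a DEG in this comparison in 6 of 21 alternatives (quantile normalization, no scaling, normexp, the authors' series table, array weights, and without DHI 1).

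In DHI versus I/R, which shares the I/R arrays with I/R versus Sham, 6 of the 9 genes were thus DEGs at the study's thresholds, 2 higher in DHI (Spock1 and Spock2) and 4 lower (Thbs2, Thbs4, Sparc, and Vtn), beside 21.9% of all probes, 11.5% higher and 10.5% lower. None of the 9 (0 genes) passed when limma's p was adjusted (adjusted p from 0.196 to 0.429), beside 0.00421% of all probes. The DHI arrays lay wholly apart from the I/R arrays for 3 genes, Thbs4, Spock1, and Vtn, beside 9.53% of all probes. The methods' t-test called 1 higher and 2 lower, and 469 of all probes in place of 5211. Leaving out 1 of I/R 1, I/R 2, DHI 2, and DHI 3 left 1 higher and 2 lower. With no scaling between arrays 1 gene was higher and 7 were lower, since the median of all probes moved from 0.10 to -0.36. Without DHI 1, 2 were higher and 6 lower at the unadjusted p, beside 45.2% of all probes called (26.2% higher and 19.1% lower). These 8 also passed the adjusted p. The share of all probes at the adjusted p was not counted, so that this count is not a result about the members. The counts without DHI 1 are a description, since DHI 1 was left out for lying near I/R. With DHI 2 or DHI 3 left out instead, 0 members passed the adjusted p.

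**Figure D2:**
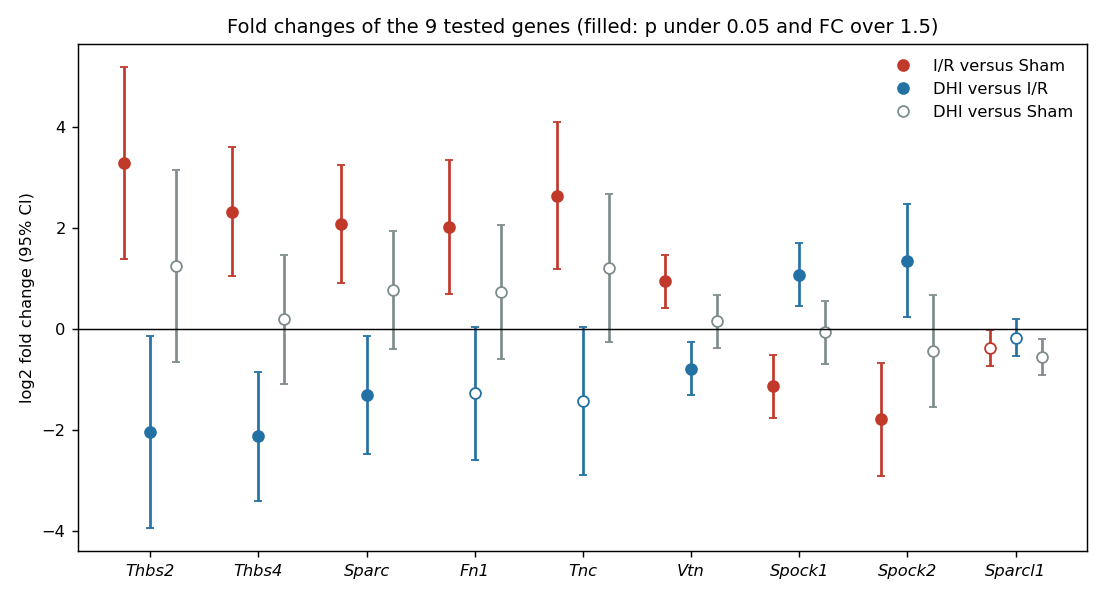
Log2 fold changes (y axis) with 95% confidence intervals are shown for the 9 tested genes (x axis) in the 3 comparisons, each of 3 against 3 arrays. Filled points are DEGs (unadjusted p under 0.05 and FC over 1.5): 8 genes in I/R versus Sham, 6 in DHI versus I/R, and 0 in DHI versus Sham.

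In DHI versus Sham, 0 of the 9 genes were DEGs in limma, beside 3.58% of all probes, 2.52% higher and 1.06% lower (1294 probes, or 5.45%, had an unadjusted p under 0.05, and Sparcl1 was the 1 gene among the 9 whose representative probe did). The log2 fold changes ran from -0.57 for Sparcl1 to 1.24 for Thbs2 (SE 0.83, 95% confidence interval -0.67 to 3.14), with adjusted p from 0.709 to 0.914. These values moved with the DHI array left out. Thbs2 stood at 0.17 without DHI 1 and 2.04 without DHI 2, Sparc at 0.14 and 1.22, Tnc at 0.47 and 1.90, and Fn1 at -0.031 and 1.13. Without DHI 1 the value was -0.43 for Thbs4, -0.60 for Sparcl1, 0.21 for Spock1, -0.022 for Spock2, and 0.033 for Vtn. The SD of Thbs2 was 1.93 in DHI against 0.34 in Sham and 0.40 in I/R, and that of Fn1 was 1.32 against 0.18 and 0.35. The DHI arrays lay wholly apart from the Sham arrays for 1 gene, Sparcl1, beside 18.6% of all probes. Without DHI 2, 3 genes were higher in DHI than in Sham (Thbs2, Sparc, and Tnc), beside 2519 probes called (1838 of them higher) in place of 849. Without Sham 1 or without DHI 1, 1 gene (Sparcl1) was lower.

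Within DHI, 7 of the 8 genes called after I/R had DHI 1 nearest to I/R, DHI 3 next, and DHI 2 farthest, and Vtn was the exception, with DHI 2 nearer to I/R than DHI 3. On the scale from Sham (0) to I/R (1), DHI 1 lay at 1.12 for Fn1, 1.03 for Thbs2, 1.01 for Tnc, and 0.97 for Sparc, at 0.72 for Spock2, 0.61 for Thbs4, and 0.54 for Spock1, and at 0.39 for Vtn. DHI 2 lay between -0.32 (Thbs4) and 0.15 (Vtn), and DHI 3 between -0.082 (Vtn) and 0.43 (Tnc). DHI 1 was thus nearest to I/R for all 8 genes, whether they rose or fell after I/R. Sparcl1 differed, with positions of 1.26, 1.48, and 1.60 on DHI 1, DHI 2, and DHI 3.

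**Figure D3:**
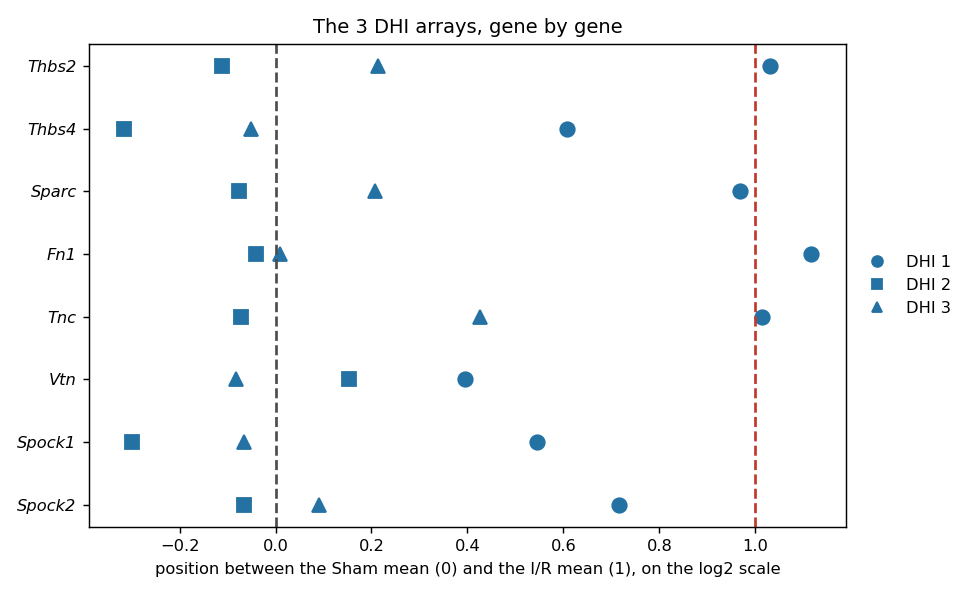
Each DHI array is placed (x axis) between the Sham mean (0, dashed grey line) and the I/R mean (1, dashed red line) of the log2 signal for the 8 genes called in I/R versus Sham (y axis), with 1 shape per array. DHI 1 lies between 0.39 and 1.12, DHI 2 between -0.32 and 0.15, and DHI 3 between -0.082 and 0.43.

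The second probes of Fn1 and Spock2, whose sequences are given above, did not repeat every call. The dimmer Fn1 probe had log2 signals from -6.65 to -6.18 in Sham, -5.63 to -4.86 in I/R, and -5.97 to -5.10 in DHI, so that all I/R arrays and all DHI arrays were above all Sham arrays. Its log2 fold change was 1.105 (SE 0.29, adjusted p = 0.0399) in I/R versus Sham, smaller than the 2.01 of the brighter probe, -0.37 (SE 0.29) in DHI versus I/R, and 0.74 (SE 0.29, adjusted p = 0.709) in DHI versus Sham, where it was a DEG and the brighter probe was not. Without DHI 1 these last values were -0.63, then a DEG, and 0.48, no longer one. The dimmer Spock2 probe, read from 1 spot, was a DEG in no comparison. Its log2 fold change was -1.54 (SE 0.81, adjusted p = 0.159) for I/R against Sham and -0.092 (SE 0.81) in DHI versus I/R, where the brighter probe gave 1.35. Its 3 DHI arrays read 1.16, 1.89, and -1.33, DHI 3 being the lowest of all 9 arrays, unlike the brighter probe. The interval of the dimmer probe in DHI versus I/R, -1.97 to 1.79, holds the value of the brighter probe. Without DHI 1 the dimmer Spock2 probe gave -0.39 in DHI versus I/R and -1.92 in DHI versus Sham, a DEG in neither, and without DHI 2 it was a DEG in DHI versus Sham (-2.29).

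**Figure D4:**
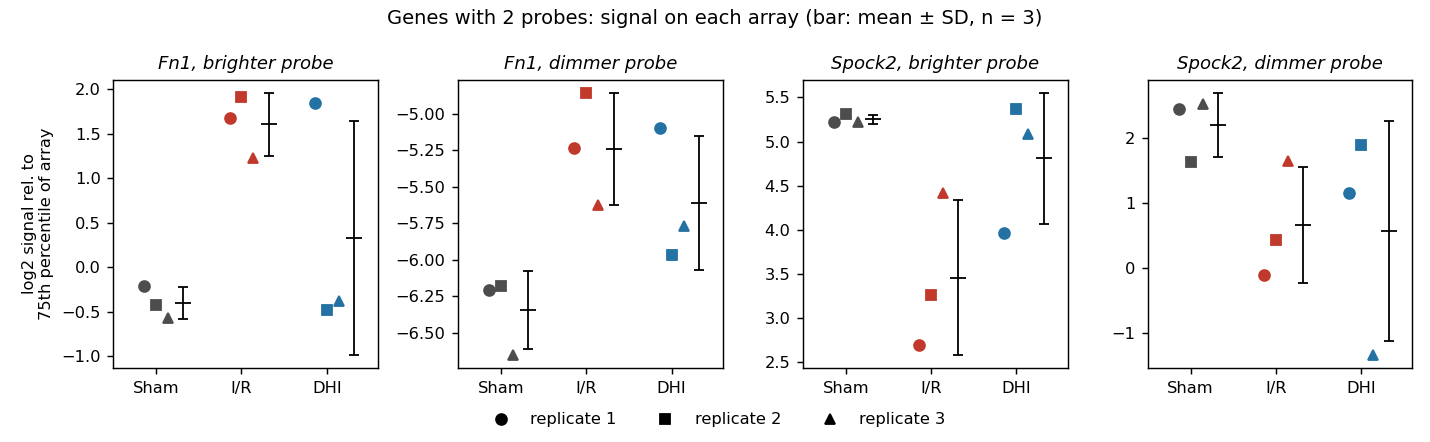
The log2 signal on each array (y axis, a scale per probe) is shown for the brighter and the dimmer probe of Fn1 and Spock2, with bars for mean ± SD of 3 arrays. Both Fn1 probes are higher on all I/R than on all Sham arrays, while the dimmer Spock2 probe overlaps between Sham and I/R and is lowest on DHI 3 (-1.33).

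Related genes were read from a list of 21 other matricellular and related proteins, of which 20 were on the array under these names and tested (Thbs3 was not found under its name). After I/R, 12 of the 20 were DEGs with a rise and 2 with a fall, beside 20.8% and 22.3% of all probes. With the adjusted p 9 of the 14 passed, beside 31.5% of all probes, and the median log2 fold change was 1.23 (-0.10 over all probes). Smoc1, 1 of the 12, was tested only because all I/R arrays measured it, so that its rise followed from that choice. Spp1, osteopontin, a secreted ligand of integrins and CD44, rose by 7.09 (SE 2.24, adjusted p = 0.0458) on the log2 scale, from -3.58 ± 2.18 in Sham to 3.51 ± 1.19 in I/R (SD, n = 3 each). Fbln1, a fibronectin-binding fibulin, rose by 3.60 (SE 0.96, adjusted p = 0.04), and Postn, periostin, a matrix protein of fibroblasts, by 2.77 (SE 0.56). Fstl1, a secreted relative of Sparc, rose by 2.49 (SE 0.57). The genes that fell were Tnn (log2 fold change -3.47, SE 0.89), tenascin-N, which 2 of the 3 I/R arrays scored as well above background, and Spock3 (-2.09, SE 0.47), the remaining testican, so that all 3 testicans were lower in I/R.

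In DHI versus I/R, 3 of these 20 genes were higher and 6 lower at the study's thresholds, beside 11.5% and 10.5% of all probes, 0 of them with the adjusted p in limma, with a median of -0.77 (0.10 over all probes). Fbln1 had a log2 fold change of -2.48 (SE 0.96), Postn -1.67 (SE 0.56), and Fstl1 -1.55 (SE 0.57), while Tnn had 2.90 (SE 0.89) and Spock3 1.64 (SE 0.47). Spp1 was not a DEG (-4.92, SE 2.24), with an SD of 4.89 in DHI. Without DHI 1 these values were -3.73, -2.38, -2.29, 3.89, and 2.13, and -7.53 for Spp1, and all 6 were DEGs. Without DHI 2, Fbln1 (-1.97), Postn (-1.53), and Fstl1 (-1.104) were no longer DEGs, while Tnn (2.16) and Spock3 (1.62) were. Over the list, the counts without DHI 1 were 3 higher and 11 lower (26.2% and 19.1% of all probes), with a median of -1.23. In DHI versus Sham 1 was higher and 3 were lower, or 2 and 2 without DHI 1, beside 2.52% and 1.06% of all probes (2.55% and 0.952% without DHI 1).

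The receptors and binding partners of these proteins were read from a list of 14 genes, 11 of them on the array under these names (Itgav, Itga9, and Stab1 were not). After I/R, 9 of the 11 rose and 1 fell, 9 of these 10 with the adjusted p, and the median log2 fold change was 1.63. The background is that of the preceding list (20.8% higher, 22.3% lower, and 31.5% with the adjusted p). Itgb3, the integrin subunit of the classical vitronectin receptor, was well above background on 0 of 3 Sham, 3 of 3 I/R, and 1 of 3 DHI arrays, and was at least 8.78-fold higher in I/R than in Sham. It was tested only because all I/R arrays measured it, so that its rise followed from that choice and is a description. This bound compares the I/R mean with the Sham mean after raising every Sham array to its detection limit, the dimmest signal that the array scored as well above background, where the probe read lower. Itga5, the alpha subunit of the fibronectin receptor, rose by 2.96 (SE 0.62), and Itgb5, another subunit of vitronectin receptors, by 1.96 (SE 0.43). Plaur, the urokinase receptor, which also binds vitronectin, rose by 1.85 (SE 0.45). The gene that fell was Cacna2d1, the neuronal receptor of thrombospondins, with a log2 fold change of -2.70 (SE 0.72, adjusted p = 0.04), from 2.77 ± 0.17 in Sham to 0.068 ± 1.45 in I/R (SD, n = 3 each).

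In DHI versus I/R, 1 of the 11 was higher, Cacna2d1 (1.77, SE 0.72), and 5 were lower, among them Itga5 (-1.45, SE 0.62), Itgb5 (-1.23, SE 0.43), and Itgb3, beside 11.5% and 10.5% of all probes. Plaur was not a DEG (-1.01, SE 0.45). The median was -1.01, and 0 of the 11 passed the adjusted p in limma. Without DHI 1 the values were 2.29 for Cacna2d1, -2.25 for Itga5, -1.69 for Itgb5, and -1.41 for Plaur, all 4 of them DEGs, and without DHI 2 (1.38, -1.09, -0.97, and -0.70) none of the 4 was. Over the list, 1 was higher and 9 lower without DHI 1 (26.2% and 19.1% of all probes), with a median of -1.41. In DHI versus Sham 2 were higher (Itga5 and Itgb3) and 0 lower, with and without DHI 1, beside the shares given for the preceding list. Itgb3 was tested only through the I/R arrays, so its fall in DHI versus I/R followed from that choice as well. It was well above background on 0 of 3 Sham and 1 of 3 DHI arrays. Its higher value in DHI versus Sham thus rests mostly on dim signal and is a description.

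Markers of several cell types moved with these results. All 6 fibroblast markers (Col1a1, Col1a2, Col3a1, Lum, Dcn, and Col6a1) were DEGs with a rise in I/R versus Sham, with a median log2 fold change of 4.09, and all 6 were lower in DHI versus I/R at the study's thresholds, with a median of -2.93 (-4.38 without DHI 1). Their summed level, on the log2 scale, ran from 2.28 to 3.14 in Sham, from 6.16 to 6.84 in I/R, and from 2.42 to 6.62 in DHI, where DHI 1 was the highest. Of the 6 microglia and macrophage markers, 5 rose after I/R (median 3.50) and 4 were lower in DHI versus I/R (-2.37, or 5 lower, 1 higher, and -3.34 without DHI 1). Their summed level ran from 2.77 to 3.03 in Sham, 5.05 to 6.57 in I/R, and 3.28 to 5.66 in DHI. All 6 neuron markers were lower after I/R, with a median of -2.76, and 5 were higher in DHI versus I/R (median 2.03, or 6 and 2.59 without DHI 1). Their summed level ran from 4.95 to 5.52 in Sham, 1.29 to 3.98 in I/R, and 3.28 to 5.23 in DHI. Each summed level is the log2 of signals added over the probes of a list, so that the brightest probes weigh most. In the neuron list that was Snap25, with a Sham mean of 4.93, and the next was Map2, with 1.90. In DHI versus I/R, 0 fibroblast, microglia and macrophage, or neuron markers passed the adjusted p with all arrays, beside 0.00421% of all probes. Without DHI 2, no marker of these lists was a DEG in that comparison, beside 939 of all 23747 tested probes.

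The shares over all probes given for the preceding markers apply here as well. In DHI versus Sham they were 2.52% higher and 1.06% lower, or 2.55% and 0.952% without DHI 1. Of the 6 astrocyte markers, 4 rose and 1 fell after I/R (median 0.75), of the 8 pericyte and smooth muscle markers 3 rose (median 0.64), and of the 6 endothelial markers 2 rose (median 0.17). For DHI versus I/R these lists held 2, 1, and 0 lower genes and 0 higher ones, or 4, 3, and 0 lower and 1 higher in each without DHI 1. Without DHI 2 they held no DEG in this comparison. Of the 4 oligodendrocyte markers 0 were DEGs in limma in the 3 comparisons, at the unadjusted p, and in both DHI comparisons also without DHI 1. The 3 red blood cell markers were lower after I/R (median -2.04) and higher in DHI versus I/R (2.67, or 3.35 without DHI 1). Of these 3, 0 passed the adjusted p in either comparison. Their summed level varied within groups, from 1.90 to 4.89 in Sham, 1.19 to 1.74 in I/R, and 2.87 to 5.28 in DHI. Without DHI 2, Hba-a2 (2.14) and Hbb (2.34) were still DEGs in DHI versus I/R, and Alas2 (1.58) was not. Of the choroid plexus markers 1 of the 3 tested rose after I/R and 2 were higher in DHI versus Sham, or 1 without DHI 1. Of the 2 platelet markers tested, 1 rose after I/R. The DHI versus I/R comparison had 1 higher and 1 lower, also without DHI 1, and no platelet DEG without DHI 2. The part of these cell types in the results of the matricellular genes was not tested.

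**Figure D5:**
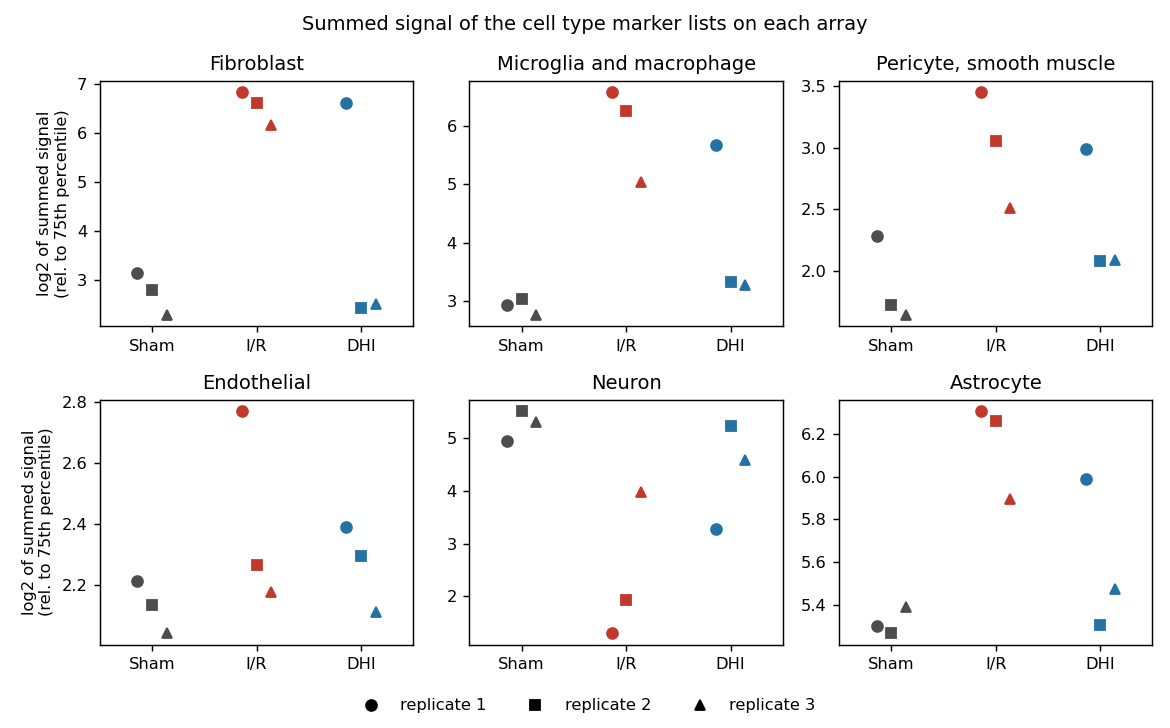
The log2 of the summed signal of each marker list (y axis, a scale per list) is shown for each Sham, I/R, and DHI array, with 1 point per array and the shape giving the replicate number. Bright probes weigh more in a sum than dim ones. Fibroblast and microglia and macrophage markers are higher on all I/R than on all Sham arrays and high on DHI 1, and neuron markers are lower on all I/R than on all Sham arrays.

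Across the 9 arrays, Thbs2 followed Sparc (Pearson's r 0.99), Fn1 (0.98), Tnc (0.95), and Thbs4 (0.92), and ran opposite to Spock2 (-0.92) and Spock1 (-0.92), while Sparcl1 followed none of them closely (-0.39 with Thbs2). The 9 points share the 3 groups, so these values describe mostly the group differences. Among 13676 other genes, the one most like each member over the 9 arrays was Mfap2 for Thbs2 and Csf2rb for Thbs4 (0.998 each), Dennd2d for Sparc (0.998), Scn2a1 for Spock2 (0.999), Tmem151a for Spock1 (0.990), Fxyd2 for Fn1 (0.999), Ebpl for Tnc (0.990), and Khnyn-ps1 for Vtn (0.960). Vtn thus had the least close partner of the 8 genes called after I/R.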

How the data were processed

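Gene expression was measured in 9 samples (3 Sham, 3 I/R, and 3 DHI). The authors deposited the output of Agilent Feature Extraction 10.7.1.1 (version per the submitters' processing notes), which gives the intensity of each spot, corrected for background within the array. A table of log2 values for the series, deposited as well, served as an alternative. Unused columns of values numbered 0. The study's text gives the thresholds on p and fold change and a t-test, and the normalization behind its calls is not given in the sources used here. The deposited log2 table has closely the same distribution on every array, as quantile normalization leaves it.

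From these intensities, control spots and the 392 to 725 spots per array marked as outliers were left out, spots of a probe were averaged on the log2 scale, and the 75th percentile of the array was subtracted. Testing covered the 23747 probes that were well above background (at least 0.5 of their spots) throughout 1 group or more. No value of a member was missing. A single limma model with 6 residual degrees of freedom (lmFit and eBayes) took in all 9 arrays, with Benjamini-Hochberg adjustment over all tested probes. The versions were R 4.3.3 and limma 3.58.1. The fitting steps were tested on simulated data. Arrays give no read depth, and their number limits the precision.

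All 10 members are named. From the list of related proteins and that of receptors, the DEGs that changed most after I/R are named, at most 4 up and 4 down. For each member called in I/R versus Sham or DHI versus I/R, the gene with the highest Pearson's r is named. A gene of the receptor list is not reported here, and its counts leave it out. The members, lists, and tests were chosen with earlier results of these data known, and the lists without DHI 1, and their named genes and the second probes without DHI 1 and without DHI 2, were read after the data were seen. Motif matches were counted in the 250 bases before the start of each gene in a RefSeq table.

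The alternatives were quantile normalization, no scaling, normexp (offset 50), the authors' series table, 2 other filters on dim probes, a replicate block, the methods' t-test, array weights, a model of the 2 groups in question, the mean of all probes of a gene, the adjusted p as call rule, and leaving out each array.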

Additional observations from a re-analysis of the deposited data

How the results depend on the processing

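The 8 calls in I/R versus Sham, 6 higher and 2 lower, kept their direction and their call under all 21 alternatives at the unadjusted p, with 6 higher and 2 lower without each array in turn. In DHI versus I/R, 2 genes were higher and 4 lower. The counts were 1 higher and 7 lower with no scaling between arrays, 1 and 2 with only the 2 groups compared and with the methods' t-test, 1 higher with the mean of all probes of a gene, and 0 and 0 with the adjusted p. Without each array in turn, 1 to 2 were higher and 2 to 6 lower. In DHI versus Sham, with 0 called, 1 gene was lower with quantile normalization, with no scaling, and with the authors' series table, 1 was higher with normexp, and 2 were higher and 1 lower with array weights. Without each array in turn, 0 to 3 were higher and 0 to 1 lower. In the same comparison, the sign turned for Thbs4 with no scaling (-0.079), with array weights (-0.24), and without DHI 1 (-0.43 to 0.64 over the arrays left out), for Spock1 with array weights (0.012), without Sham 3 (0.035), and without DHI 1 (0.21, range -0.27 to 0.21), for Vtn with no scaling (-0.12) and without Sham 3 (-0.015 to 0.35), and for Fn1 without DHI 1 (-0.031 to 1.13). The cause was not tested. With array weights, which gave DHI 1 a weight of 0.09, 9 genes passed the adjusted p for I/R against Sham and 8 for DHI against I/R. At the unadjusted p that setting called 13082 and 11904 of all 23747 probes, in place of 10241 and 5211. With the methods' t-test, 6 and 0 genes passed the adjusted p, beside 9461 and 469 probes called at the unadjusted p. The shares of all probes at the adjusted p were not counted for these 2 settings. With no scaling the share of DEGs of all probes that were higher moved from 52.2% to 4.8% for DHI against I/R and from 48.3% to 60.9% for I/R against Sham, where the median of all probes moved from -0.10 to 0.10. In DHI versus I/R normexp moved that share to 63.7% and the median from 0.10 to 0.23. In DHI versus Sham the share was 70.4%, and it moved to 5.21% without scaling, to 92.9% under normexp, and to 37.5% under quantile normalization. The deviations of same-numbered arrays correlated from -0.34 to 0.48. With 3 arrays per group these values cannot settle whether the replicate numbers pair the arrays, and the main model did not pair them. With the replicate number as a block, 6 genes were higher and 2 lower in I/R versus Sham, 2 higher and 5 lower in DHI versus I/R (Fn1 being added), and 0 higher and 0 lower in DHI versus Sham. The 3 arrays per group limit the precision, and signal over background limits Thbs1.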
